A study of Mus musculus with 20 samples.

Results

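The mouse Hox genes were followed through a mammary epithelial cell line, its hnRNP E1-silenced derivatives and lines with altered Platr18. The members were the protein-coding rows of the deposited expression table whose gene name is Hox, a cluster letter from a to d and a number. There were 40 such rows of 54986, with 39 distinct names because Hoxd4 is listed under 2 gene identifiers, and they comprised 11 HoxA, 10 HoxB, 9 HoxC and 10 HoxD rows. RNA sequencing was done on 20 libraries of cultured cells, 2 for each of 10 conditions, and values are counts per 1000000 reads (CPM).

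All conditions are NMuMG cells, an epithelial line from the normal mouse mammary gland, or descend from them. A first set of libraries compared untreated NMuMG, NMuMG exposed to TGFβ (an inducer of epithelial-mesenchymal transition, EMT), and E1KD, which carry an shRNA against hnRNP E1 (gene Pcbp1, an RNA-binding protein whose loss also induces EMT). It also held M1P and L1P, lines grown again in culture from a primary tumor and from lung metastases that E1KD cells had formed in NOD/SCID mice. These hosts lack lymphocytes but keep stromal and myeloid cells. A second set compared NMuMG with an empty vector, Platr18-overexpressing NMuMG clones 12 and 16 (each 1 clone), and E1KD cells with either a scrambled shRNA (SCR) or an shRNA against the long noncoding RNA Platr18 (Platr18 KD). M1P, L1P, SCR and Platr18 KD thus all carry the hnRNP E1 shRNA that E1KD carry, and SCR and the empty vector differ in vector as well as in silencing. The labels do not say whether replicates came from separate cultures, so p-values measure the spread between libraries, which may be technical.

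Hox genes encode homeodomain transcription factors that give cells their position along the body axis. Each cluster is read in order, with low-numbered genes at its 3′ end used early and toward the head and high-numbered genes at its 5′ end used late and toward the tail and limb tips. The proteins bind DNA together with PBX and MEIS cofactors, retinoic acid activates the clusters from the 3′ end, and Polycomb complexes keep unused clusters silent. Hoxa9, Hoxb9 and Hoxd9 act together in mammary gland development, and adult epithelia usually keep a fixed combination of Hox genes.

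The low values were mostly whole multiples of the worth of 1 read, which put the libraries at 50.8 to 60.03 times 1000000 reads in the first set and 63.0 to 147 times in the second. By these, 3 reads were worth 0.04998 to 0.0591 CPM in the first set and 0.0204 to 0.0477 CPM in the second, or 0.0204 CPM in the deepest libraries, those of Platr18 KD. These 3 reads served as the floor for a gene at 0. The sets are also different kinds of library. The mitochondrial rRNA gene mt-Rnr2 took 333 to 492 CPM in the first and 113874 to 165149 CPM in the second. Levels were therefore compared within a set, except in the difference between the effects of silencing in the 2 sets. E1KD replicate 1 stood apart, with gene values that summed to 728645 CPM against 547491 to 581384 CPM in the other libraries of its set. Results on tested Hox genes in E1KD are given with and without it where a call changed. Calls of named genes outside the Hox family were not checked without it. Pcbp1 was at 287 and 312 CPM in NMuMG and at 16.6 and 14.2 in E1KD, and at 32.3 and 32.3 with the empty vector and 3.28 and 3.46 in SCR. Platr18, listed as Lncenc1, was at 3.68 and 3.06 CPM with the empty vector, 3092 and 3096 in clone 12, and 813 and 820 in clone 16. It was at 2.92 and 3.10 CPM in SCR, no higher than with the empty vector, and at 0.136 and 0.170 in Platr18 KD. In the first set Platr18 was at 1.24 and 1.45 CPM in NMuMG, 2.40 and 2.70 with TGFβ and 17.9 and 14.6 in E1KD. There it was at 25.7 and 26.2 CPM in M1P and 76.9 and 73.3 in L1P. The epithelial keratin genes Krt8 and Krt18 were at or above 670 and 546 CPM in every library, whereas Epcam was at 0 in 18 of 20 libraries. Summed markers of leukocytes stayed between 1.13 and 3.48 CPM, of endothelium at or under 0.541 CPM and of lung epithelium at or under 0.903 CPM, with Sftpc at 0 in all 20 libraries, including M1P and L1P.

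The HoxA and HoxB clusters went separate ways. Summed over the 11 HoxA rows, NMuMG had 2.07 and 2.19 CPM, TGFβ-treated NMuMG 4.81 and 4.64 CPM, E1KD 30.1 and 24.4 CPM, M1P 22.7 and 23.3 CPM, and L1P 26.6 and 27.4 CPM. In the second set the HoxA sum was 0.644 to 1.52 CPM in the 6 libraries of cells not silenced and 15.6 to 18.4 CPM in the 4 silenced ones, again without overlap. Summed over the 10 HoxB rows, NMuMG had 38.9 and 41.5 CPM, TGFβ-treated NMuMG 31.2 and 32.6 CPM and E1KD 29.5 and 26.3 CPM, but M1P had only 1.73 and 1.72 CPM and L1P 3.02 and 3.09 CPM. HoxA RNA was thus high in every silenced line, while in the first set HoxB RNA was lowest in the lines recovered from mice. In the second set the HoxB sums of silenced cells, 8.17 to 10.4 CPM, lay within the 7.04 to 12.5 CPM of the others. In bulk RNA, fewer cells with a transcript and less of it per cell cannot be told apart. No test was made of these sums.

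**Figure D1:**
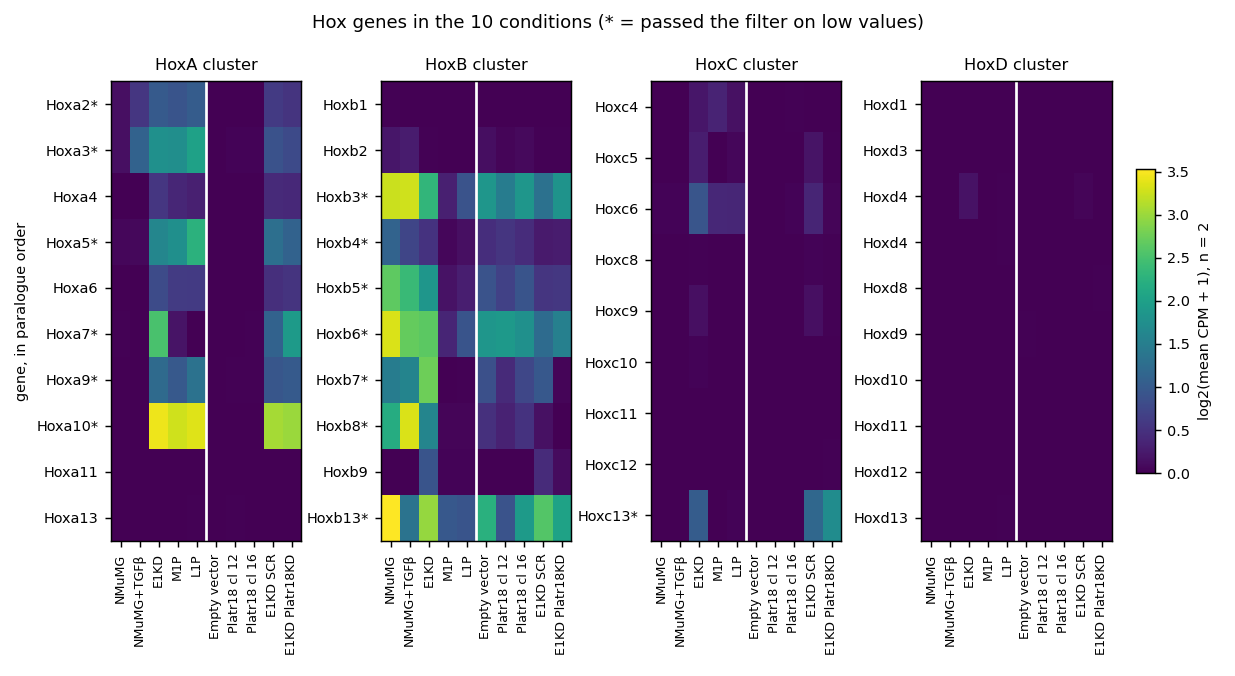
Mean level of 39 of the 40 Hox rows, as log2(mean CPM + 1) of 2 libraries, in the 10 conditions, with genes in paralogue order within each cluster and a white line between the 2 sets of libraries. Hoxa2 to Hoxa10 are lit in the 5 silenced conditions, except Hoxa7 in M1P and L1P, HoxB genes are darker in M1P and L1P than in E1KD, and HoxD genes are dark throughout.

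HoxA RNA ended between Hoxa10 and Hoxa11, so the promoters of Hoxa10, Hoxa7 and the silent Hoxa11 are shown, with that of Hoxb8, the Hox gene called higher with TGFβ. They are windows of 300 bases around a RefSeq transcript start (GRCm38.p6, coding strand), and capitals mark CAGAC or its complement GTCTG, a short letter sequence bound by SMAD proteins, the effectors of TGFβ.
Hoxa10 (chr6:52240805-52241104, minus strand): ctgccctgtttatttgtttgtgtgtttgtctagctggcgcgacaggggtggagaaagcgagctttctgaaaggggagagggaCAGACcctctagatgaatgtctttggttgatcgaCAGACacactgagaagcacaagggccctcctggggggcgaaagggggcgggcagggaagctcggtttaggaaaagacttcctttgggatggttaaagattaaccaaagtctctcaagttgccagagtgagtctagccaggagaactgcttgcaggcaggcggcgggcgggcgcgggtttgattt
Hoxa11 (chr6:52245761-52246060, minus strand): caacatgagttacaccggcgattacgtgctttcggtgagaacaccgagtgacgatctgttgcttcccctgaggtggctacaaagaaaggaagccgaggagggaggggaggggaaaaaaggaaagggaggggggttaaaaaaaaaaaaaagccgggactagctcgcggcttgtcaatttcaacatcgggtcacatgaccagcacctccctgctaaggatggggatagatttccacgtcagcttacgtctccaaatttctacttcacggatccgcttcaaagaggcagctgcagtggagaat
Hoxa7 (chr6:52218524-52218823, minus strand): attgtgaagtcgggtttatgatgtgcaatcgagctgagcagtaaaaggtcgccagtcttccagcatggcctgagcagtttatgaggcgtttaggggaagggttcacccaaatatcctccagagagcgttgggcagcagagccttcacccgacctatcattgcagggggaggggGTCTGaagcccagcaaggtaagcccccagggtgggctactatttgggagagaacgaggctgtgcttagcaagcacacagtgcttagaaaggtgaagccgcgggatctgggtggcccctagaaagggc
Hoxb8 (chr11:96281655-96281954, plus strand): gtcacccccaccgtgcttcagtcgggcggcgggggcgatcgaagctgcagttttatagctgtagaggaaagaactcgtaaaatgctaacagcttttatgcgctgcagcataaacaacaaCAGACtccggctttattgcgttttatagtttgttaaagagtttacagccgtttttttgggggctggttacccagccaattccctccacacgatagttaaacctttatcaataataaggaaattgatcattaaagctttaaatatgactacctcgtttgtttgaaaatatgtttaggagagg
The Hoxa10 window shown held 2 such letter matches, the Hoxa7 and Hoxb8 windows 1 each and the Hoxa11 window 0. Hoxa10 has a second window, at a start inside its row (chr6:52234890-52235189), which held 0 matches and 21 CpG dinucleotides, so the count for this gene depends on the start chosen. RefSeq windows were at hand for 22 of the 39 Hox genes, 24 windows in all, and 37.5% of them held CAGAC on either strand, against 49.6% of all 32851 promoter windows. CACCTG, the E-box that Zeb and Snail proteins bind, was in 0 of the 24 and in 20.2% of all windows, and the longer GTCTAGAC was in 0 of the 24 and in 0.213% of all. None of the 3 motifs contains another. The 24 windows held a median of 14.5 CpG dinucleotides against 7 over all windows, with 12, 15, 9 and 13 in the 4 shown. A match is a description of letters, not of binding.

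The clusters also carry miRNA genes, and one pairing within the family is known from textbooks: miR-196, made from loci next to Hox genes, cleaves the Hoxb8 transcript through an almost fully complementary site. The sequences are shown because Hoxb8 was called in 3 comparisons below, with the seed (bases 2 to 8) in capitals, and in the site the bases that face the seed.
miR-196a-5p (chr11:96265187-96265208, plus strand, and chr15:102973365-102973386, plus strand): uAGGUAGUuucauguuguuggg
miR-196b-5p (chr6:52230129-52230150, minus strand): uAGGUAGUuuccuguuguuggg
Hoxb8 site (transcript Hoxb8-201, from base 2208): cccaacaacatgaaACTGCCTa
An ungapped search of the GENCODE M21 transcripts of 21877 protein-coding genes kept 1 site per gene for miR-196a-5p. The site kept was the one with the most pairs, G:U pairs included. The Hoxb8 site had rank 1, with 21 of 22 Watson-Crick pairs plus 1 G:U pair. No other gene's kept site had more than 17 Watson-Crick pairs, and among those of the other Hox genes the most were 15, in Hoxd8 and Hoxa4. Sites with more Watson-Crick but fewer total pairs were not looked for. The locus of miR-196b lies inside the Hoxa9 row and overlaps the gene that rose in silenced cells. The Mir196a-1, Mir196a-2 and Mir196b rows were at 0 in all 20 libraries, so levels of the mature miRNAs were not measured.

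Of the 40 rows, 25 had more than 3 reads in at least 1 library, and 15 passed the filter of at least 1 CPM in 2 libraries and were tested, among them Hoxa2, a3, a5, a7, a9 and a10, Hoxb3, b4, b5, b6, b7, b8 and b13, and Hoxc13. The test was limma on log2(CPM + 1) over 17106 genes, and a gene was called where its unadjusted p was under 0.001 and its log2 fold change was 1 or more in either direction. Hoxa2, a5, a7, a9, a10 and Hoxc13 reached 1 CPM only in libraries of silenced cells, so the filter itself let in members that differ, and the counts below describe the members without supporting a claim about the family. Another 15 rows never exceeded 3 reads: Hoxa11, Hoxa13, Hoxb1, Hoxc8, Hoxc10, Hoxc11, Hoxc12, the shorter Hoxd4 row, Hoxd1, Hoxd3, Hoxd9, Hoxd10, Hoxd11, Hoxd12 and Hoxd13. Most of the HoxD cluster was among them.

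In hnRNP E1-silenced cells a stretch of the HoxA cluster was on that ended with Hoxa10 (chr6:52231197-52240854, GRCm38). Between E1KD and NMuMG, 7 of the 15 were called higher and 0 lower, against 6.44% of all tested genes called higher and 2.99% called lower. The 7 were Hoxa10, a7, a3, a5 and a9, which specify posterior and limb identities or, for Hoxa3 and Hoxa5, organs such as thymus and lung, together with Hoxb7 and Hoxc13. In SCR against the empty vector, the same silencing in the second set, 4 were called higher (Hoxa10, a5, a7 and Hoxc13) and 0 lower, against 2.91% and 3.07% of all genes.

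Hoxa10, a gene of uterus and limb development, was at 0 in all 4 libraries of NMuMG and TGFβ-treated NMuMG. It was at 11.04 and 8.65 CPM in E1KD, 8.47 and 8.95 in M1P and 8.97 and 9.46 in L1P. All 6 silenced libraries of the first set lay far above the 4 others. In the second set it was at 0 with the empty vector and in clone 12, at 0 and 0.0140 CPM (1 read) in clone 16, at 6.96 and 7.59 CPM in SCR and at 6.88 and 7.08 in Platr18 KD. The log2 fold change was 3.43 ± 0.09 (SE, adjusted p = 2.35e-13) in E1KD against NMuMG and 3.05 ± 0.09 (adjusted p = 1.37e-12) in SCR against the empty vector. Set against the floor, Hoxa10 was at least 180-fold higher in E1KD and at least 172-fold higher in SCR.

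Hoxa9, a gene of mammary and blood cell development, had the same pattern at a lower level. It was at 0 in NMuMG with and without TGFβ, at 1.42 and 1.26 CPM in E1KD, 0.838 and 1.13 in M1P, and 1.49 and 1.53 in L1P. In the second set it did not exceed 0.0279 CPM in the 6 libraries of cells not silenced and was 0.907 and 0.953 CPM in SCR and 0.910 and 1.10 in Platr18 KD. No silenced library overlapped with one that was not silenced. The log2 fold change was 1.22 ± 0.07 (adjusted p = 1.33e-09) in E1KD, at least 24.4-fold against the floor. In SCR it was 0.95 ± 0.07 (adjusted p = 3.52e-08), just under the limit of 1.

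Hoxa5, which acts in lung development, was at 0.0708 and 0.0189 CPM in NMuMG and 0.0167 and 0.09996 with TGFβ, against 2.26 and 1.88 in E1KD, 2.51 and 2.27 in M1P and 3.90 and 3.77 in L1P. Within the second set it had at most 1 read in each of the 6 libraries of cells not silenced, 1.42 and 1.48 CPM in SCR and 1.19 and 1.12 in Platr18 KD. The silenced and other libraries were again apart, and L1P was the highest line. The log2 fold changes were 1.55 ± 0.06 (adjusted p = 6.92e-11) in E1KD and 1.28 ± 0.06 (adjusted p = 8.97e-10) in SCR.

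Hoxa3, which shapes the thymus and parathyroid, differed from Hoxa10, a9 and a5 in that TGFβ-treated cells were intermediate, as they were for Hoxa2. It was at 0.0885 and 0.113 CPM in NMuMG, 1.04 and 1.26 with TGFβ, 2.54 and 2.32 in E1KD, 2.51 and 2.22 in M1P and 3.09 and 3.05 in L1P. The 5 conditions of the first set did not overlap, except E1KD with M1P. Within the second set it was at or under 0.0307 CPM in cells not silenced, at 0.866 and 0.842 CPM in SCR and at 0.706 and 0.754 in Platr18 KD. The log2 fold change was 1.64 ± 0.06 (adjusted p = 1.93e-11) in E1KD, a ratio of means of 24.1, and 0.96 ± 0.06 (adjusted p = 5.41e-09) with TGFβ, under the limit of 1. With either rescaling of the libraries, Hoxa3 was called after TGFβ as well. The Hoxa3 row spans Hoxa4, Hoxa5 and Hoxa6 and runs opposite to the antisense genes Hoxaas2 and Hoxaas3, which reached 1.47 and 0.779 CPM, so its reads could be shared with theirs.

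Hoxa7 behaved like its neighbours in culture and unlike them in the lines from mice. It was at 0.0177 and 0.0189 CPM (1 read each) in NMuMG and at 0 with TGFβ, and at 5.12 and 4.30 CPM in E1KD. In M1P it was back at 0.105 and 0.177 CPM, and in L1P at 0. Across the second set it was at or under 0.0140 CPM in cells not silenced, 1.02 and 1.32 CPM in SCR and 2.78 and 2.83 in Platr18 KD. It was thus high only in the silenced lines that had not passed through a mouse. Its log2 fold change was 2.48 ± 0.07 (adjusted p = 8.30e-13) in E1KD against NMuMG, 1.11 ± 0.07 (adjusted p = 1.18e-08) in SCR against the empty vector, and -2.32 ± 0.07 (adjusted p = 6.59e-12) in M1P against E1KD, where the E1KD mean was 33.4 times that of M1P.

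Hoxa2, which patterns the hindbrain, was not called in any comparison with a pseudocount of 1, but its level was near or under 1 CPM throughout. With a pseudocount of 0.1 it was called higher in E1KD against NMuMG, after TGFβ and in SCR. Of all genes 13.85%, 18.37% and 9.985% were called there. It was at 0.159 and 0.0566 CPM in NMuMG, 0.517 and 0.433 with TGFβ, and between 0.850 and 1.12 CPM in the 6 silenced libraries of the first set. In the second set it was at most at 1 read in cells not silenced and between 0.338 and 0.683 CPM in silenced ones.

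Hoxa4 and Hoxa6, also of the stretch, did not pass the filter but had the same pattern. Both were at 0 in all 10 libraries of cells not silenced and above 3 reads in all 10 silenced ones, where Hoxa4 was at 0.175 to 0.529 CPM and Hoxa6 at 0.372 to 1.04 CPM. The next gene toward the 5′ end was silent: the Hoxa11 row begins 1251 bases past the end of the Hoxa10 row (chr6:52231197-52240854) and had at most 1 read in any library, as had Hoxa13. Evx1, the homeobox gene beyond the 5′ end, also had at most 1 read. Of the 19 tested genes among those flanking the 4 clusters, 1 was called in E1KD (Atp5g1, higher by 1.18) and 0 in SCR.

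**Figure D2:**
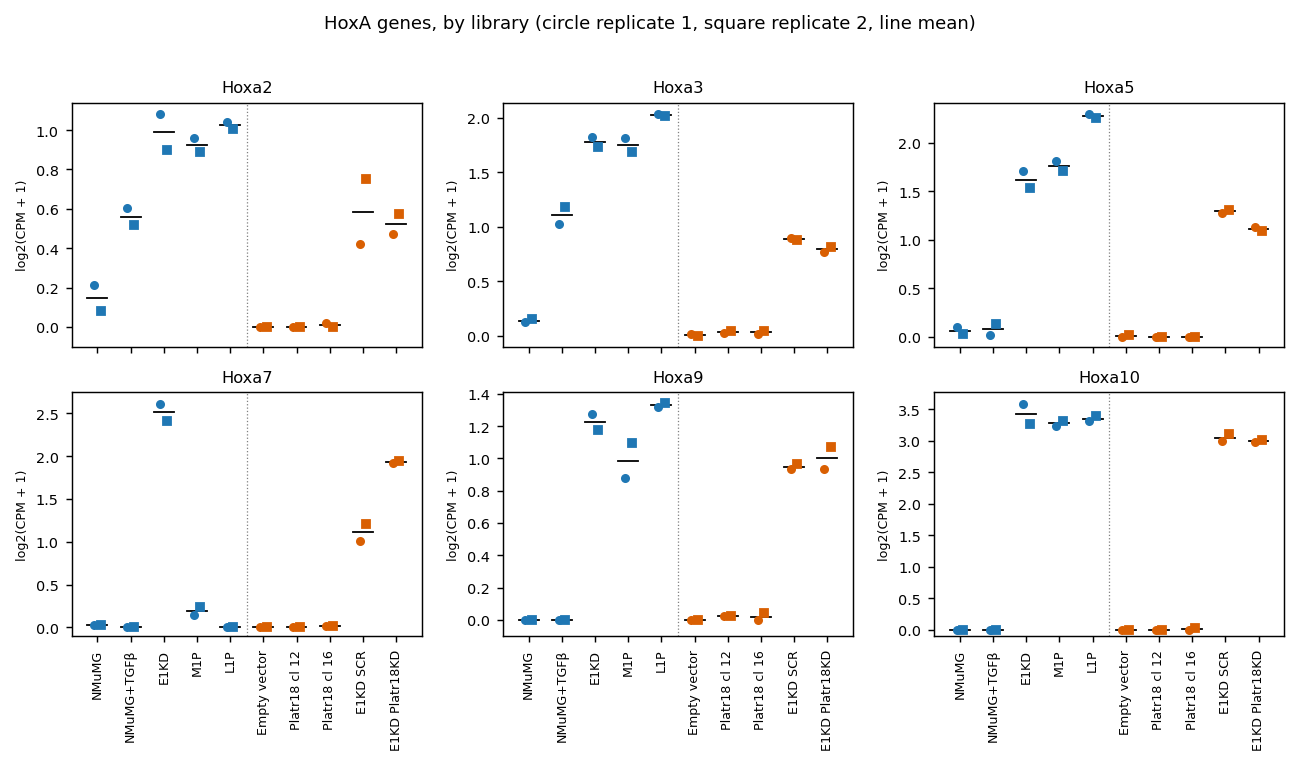
Level of 6 tested HoxA genes in each library, as log2(CPM + 1), with circles for replicate 1, squares for replicate 2, lines for means, blue for the first set and orange for the second. Hoxa3, a5, a9 and a10 stand high in all silenced conditions, and Hoxa7 is the one that drops in M1P and L1P, to at most 0.177 CPM.

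Per kilobase of annotated exon, the level within E1KD was 3.01 CPM per kilobase for Hoxa10, with Hoxa7 at 1.64, Hoxa5 at 1.11, Hoxa6 at 0.851, Hoxa2 at 0.560, Hoxa3 at 0.404, Hoxa4 at 0.293 and Hoxa9 at 0.240 CPM per kilobase. The level along the cluster did not follow gene order. In NMuMG the HoxB genes led, with Hoxb13 at 4.78 and Hoxb6 at 4.63 CPM per kilobase.

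TGFβ-treated cells and E1KD differed in Hoxa10, a7, a5 and a9 but both had more Hoxa3 RNA than NMuMG, with a ratio of means of 11.4 after TGFβ. The Hoxa3 change after TGFβ missed the limit but passed it under both rescalings, with a pseudocount of 0.1 and without TGFβ replicate 1. Between TGFβ-treated and untreated NMuMG, 1 of the 15 was called higher (Hoxb8) and 1 lower (Hoxb13), against 5.85% and 7.66% of all genes, so the members' share was near the background. Mesenchymal markers rose in both, 5 of 7 tested after TGFβ and 6 of 7 in E1KD. The direct comparison of E1KD with TGFβ-treated cells called 7 higher (Hoxa10, a7, a5, a9, Hoxb7, Hoxb13 and Hoxc13) and 1 lower (Hoxb8), against 17.2% and 6.17% of all genes. The differences were 3.43 ± 0.09 for Hoxa10 and 2.51 ± 0.07 for Hoxa7 on the log2 scale. Without E1KD replicate 1, Hoxc13 lost its call in this comparison and Hoxb3 was called lower. E1KD and TGFβ-treated cells share NMuMG as control, so only this direct comparison bears on the difference between them.

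Hoxb8, known for its role in blood and microglial progenitors, was at 3.66 and 3.43 CPM in NMuMG, 8.73 and 9.31 with TGFβ, 1.77 and 2.35 in E1KD, and at or under 0.0582 in M1P and L1P. The TGFβ-treated libraries were the highest of the first set, and no condition overlapped with NMuMG. Its log2 fold change was 1.14 ± 0.08 (adjusted p = 1.23e-08) with TGFβ, a ratio of means of 2.54, and -1.72 ± 0.08 (adjusted p = 9.49e-11) in E1KD against TGFβ-treated cells. With only the E1KD and TGFβ libraries in the fit, p for the second difference was 0.00123 and it was no longer called. Within the second set Hoxb8 was at 0.452 and 0.362 CPM with the empty vector and 0.0812 and 0.159 in SCR.

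Hoxb13, a gene of the prostate and the end of the tail, was the main HoxB gene of NMuMG, at 10.3 and 10.8 CPM, and fell to 1.62 and 1.47 CPM with TGFβ. It was at 7.40 and 6.32 CPM in E1KD, 0.960 and 0.957 in M1P, and 0.824 and 0.951 in L1P. TGFβ-treated and tumor-derived cells were thus low, and E1KD lay between them and NMuMG. Its log2 fold change was -2.18 ± 0.09 (adjusted p = 4.98e-11) with TGFβ, where the mean was 6.84 times lower, and -0.56 ± 0.09 (adjusted p = 0.000121) in E1KD, which was not called.

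Hoxb7, which promotes EMT when overexpressed in breast cells, was the tested HoxB gene called higher in E1KD. It was at 1.73 and 1.87 CPM in NMuMG, 1.85 and 2.199 with TGFβ, 5.98 and 5.51 in E1KD, 0 in both M1P libraries and 0.0196 and 0 in L1P. E1KD libraries were above all others of the set. Its log2 fold change was 1.27 ± 0.06 (adjusted p = 3.70e-10) in E1KD against NMuMG, a ratio of means of 3.19. Fitted on these 4 libraries alone, its p was 0.00106 and it was not called. Within the second set Hoxb7 was at 0.808 and 0.826 CPM with the empty vector and 0.988 and 0.953 in SCR, a log2 difference of 0.12 ± 0.06 (adjusted p = 0.144) with a 95% interval from -0.01 to 0.25.

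Hoxc13, a regulator of hair and nail keratins, was at 0 in NMuMG with and without TGFβ, at 1.38 and 0.702 CPM in E1KD, at 0 in M1P and at 0 and 0.0388 in L1P. Across the second set it was at most at 1 read in cells not silenced, 1.29 and 1.25 CPM in SCR and 2.23 and 2.36 in Platr18 KD. It followed Hoxa7 in being high only in silenced lines that had stayed in culture. Its log2 fold change was 1.01 ± 0.10 (adjusted p = 1.11e-06) in E1KD and 1.18 ± 0.10 (adjusted p = 3.09e-07) in SCR, at least 18.97-fold and 30.1-fold against the floor. Without E1KD replicate 1 the E1KD value was 0.77 and fell under the limit.

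E1KD replicate 1 and the scaling bear on these counts. The median log2 fold change of all 17106 genes between E1KD and NMuMG was 0.17, and with median-of-ratios scaling it was 0.01. Relative to that scaling 6 Hox genes were higher, without Hoxc13, and 1 lower, Hoxb3, while over all genes 743 of 1450 calls were higher, in place of 1102 higher and 512 lower. For E1KD against TGFβ-treated cells the median was 0.26 and 0.02 after that scaling, with 1776 of 3540 calls higher in place of 2938 higher and 1055 lower, and Hoxc13 and Hoxb7 lost their calls while Hoxb3 was called lower. After TGFβ, 1248 of 2323 calls were higher in place of 1000 higher and 1311 lower, and for M1P against E1KD 318 of 616 in place of 198 higher and 416 lower. The 7 other calls in M1P were made under both rescalings. Hoxb3 was also called lower without E1KD replicate 1, with 6 other Hox genes higher. With the deposited scaling Hoxb3, b4, b5, b6, b8 and b13 all had lower values in E1KD than in NMuMG, with log2 differences from -0.93 to -0.56, none of which was called.

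The effect of silencing differed between the sets for some members. The effect of silencing in the first set minus that in the second was called for 2 of the 15, both with a larger effect in the first, against 2.57% of all genes with a larger and 0.947% with a smaller value. The difference was 1.37 ± 0.10 (adjusted p = 2.16e-07) for Hoxa7 and 1.15 ± 0.09 (adjusted p = 3.18e-07) for Hoxb7. For Hoxa10 it was 0.38 ± 0.12 (adjusted p = 0.0373), and for Hoxc13 -0.17 ± 0.14, with an interval from -0.48 to 0.13. Hoxa3 differed by 0.76 ± 0.09 (adjusted p = 2.05e-05), which was not called. Hoxb13 went opposite ways. It was at 3.82 and 3.61 CPM with the empty vector and 4.47 and 5.50 in SCR, 0.34 ± 0.09 higher (adjusted p = 0.00748), against 0.56 lower in E1KD than in NMuMG. The difference of -0.90 ± 0.13 (adjusted p = 0.000154) was called with a pseudocount of 0.1, at -1.02. Mesenchymal markers differed likewise, with 5 of 7 called higher. Hoxa7, Hoxa10 and Hoxc13 had almost no reads in either control. For them the difference thus nearly sets levels in E1KD against levels in SCR, across the 2 kinds of library. The kind of library and the vector differ between the sets too and cannot be told apart from the line.

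**Figure D3:**
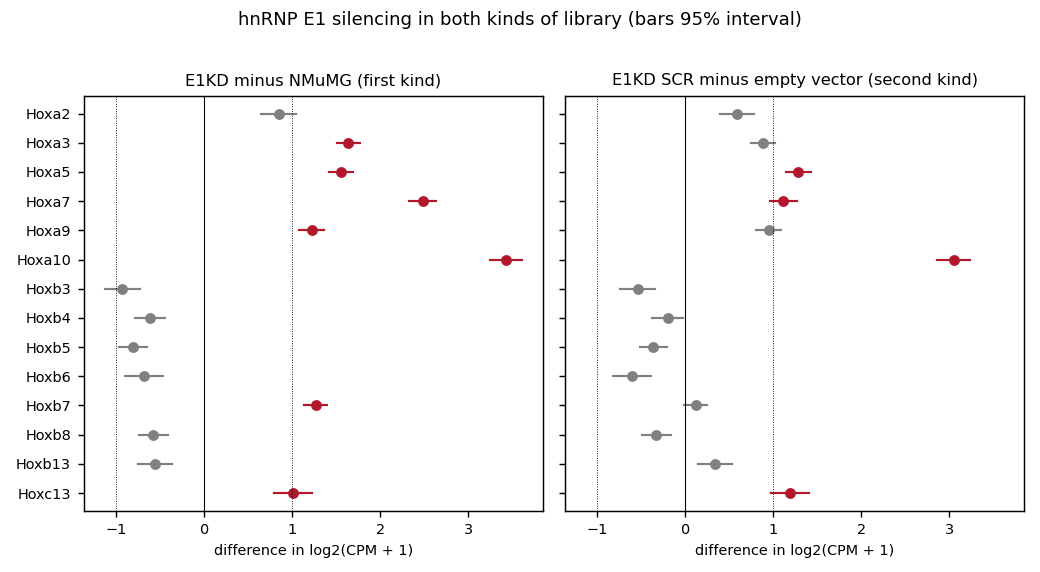
Difference in log2(CPM + 1) of 14 tested Hox genes after hnRNP E1 silencing, with 95% intervals, for E1KD minus NMuMG and for SCR minus the empty vector, red where called higher and grey where not called. Hoxa10 is farthest to the right in both panels, at 3.43 and 3.05, and Hoxb7 is called only in the first.

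In the line recovered from the primary tumor, the HoxB cluster and Hoxa7 were low. Between M1P and E1KD, 0 of the 15 were called higher and 8 lower, against 1.16% and 2.43% of all genes. The 8 were Hoxb3, b5, b6, b7, b8 and b13, Hoxa7 and Hoxc13. Hoxa10, a9, a5, a3 and a2 were not called, with log2 differences between -0.24 and 0.14, so Hoxa7 was the one tested HoxA gene called. Of the 19 tested flanking genes 0 were called.

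Hoxb6 was at 8.30 and 9.88 CPM in NMuMG, 5.27 and 5.73 with TGFβ, 5.47 and 5.04 in E1KD, 0.314 and 0.266 in M1P and 0.903 and 0.874 in L1P. Hoxb3 was at 8.25 and 8.82 CPM in NMuMG, 8.61 and 8.75 with TGFβ, 4.53 and 3.51 in E1KD, 0.245 and 0.230 in M1P and 0.922 and 0.835 in L1P. Hoxb5 was at 5.31 and 5.30 CPM in NMuMG, 4.19 and 4.31 with TGFβ, 2.72 and 2.49 in E1KD, 0.122 and 0.142 in M1P and 0.196 and 0.252 in L1P. These 3 genes of the middle and 3′ part of the cluster, which pattern the neck, trunk and lung, were lowest in M1P, with L1P higher and no overlap between the lines. Against M1P, the E1KD mean was 18.1 times as high for Hoxb6, 16.9 times for Hoxb3 and 19.7 times for Hoxb5. Hoxb7 fell by 2.75 on the log2 scale (SE 0.06, adjusted p = 3.40e-13), at least 109-fold lower against the floor. Hoxb13 fell by 2.00 (SE 0.09, adjusted p = 4.53e-10), its E1KD mean being 7.16 times that of M1P. The loss thus reached from Hoxb3 to Hoxb13, whose row ends 74009 bases before that of Hoxb9. Hoxc13, called lower by 1.01, was 0.77 lower without E1KD replicate 1 and then not called, whereas the other 7 were called with either E1KD library left out.

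Hoxb4 was at 1.13 and 1.24 CPM in NMuMG, 0.433 and 0.425 in E1KD, 0.0349 and 0.0532 in M1P and 0.118 and 0.0971 in L1P, so that its E1KD level was too low to fall by 1 on this scale. Hoxb9, not tested, was at 0 in all 10 libraries of cells not silenced, 1.201 and 0.573 CPM in E1KD, 0.393 and 0.302 in SCR, 0.0543 and 0.0885 in Platr18 KD, and at or under 0.0349 in M1P and L1P. The low genes of the HoxC and HoxD clusters resembled it in part. Hoxc6 was at 1.04 and 0.776 CPM in E1KD and at or under 0.0559 CPM in cells not silenced, Hoxc9 reached 0.157 CPM and the longer Hoxd4 row 0.129 CPM, both in E1KD. Hoxc4 and Hoxc5 reached 0.297 CPM in M1P and 0.222 in E1KD, and Hoxd8 0.0272 in Platr18 KD. The low HoxB gene Hoxb2 was unlike Hoxb9. It was at 0.106 and 0.207 CPM in NMuMG, 0.234 and 0.183 with TGFβ, 0 and 0.0370 in E1KD and 0 in M1P and L1P. The Hoxc5 row spans Hoxc6, c8, c9 and c10, so reads could be shared among them.

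**Figure D4:**
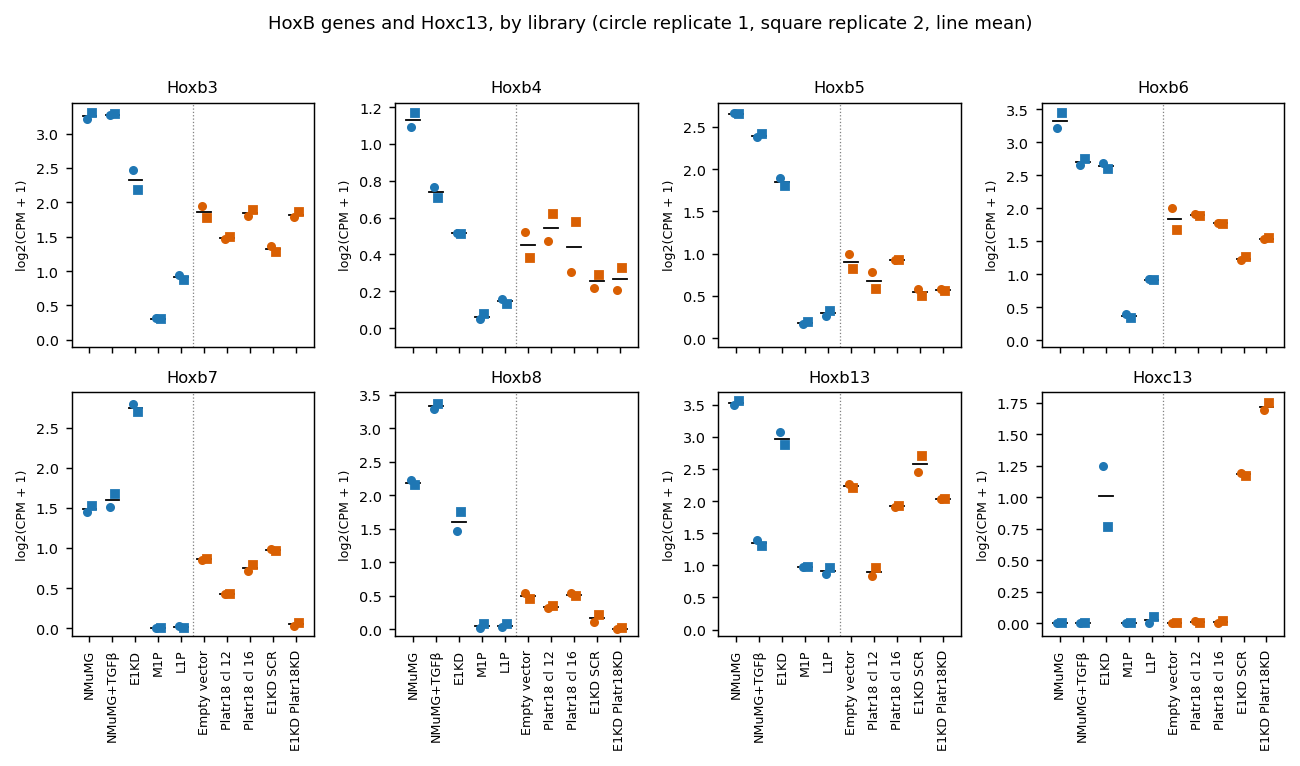
Level of the 7 tested HoxB genes and Hoxc13 in each library, as log2(CPM + 1), with circles for replicate 1, squares for replicate 2, lines for means, blue for the first set and orange for the second. Hoxb3, b5, b6, b7, b8 and b13 fall together from E1KD to M1P, Hoxb8 peaks with TGFβ at 8.73 and 9.31 CPM, and Hoxc13 stands above 0.0388 CPM only in E1KD, SCR and Platr18 KD.

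The metastasis-derived line was set against the tumor-derived line. Hoxb3, b4, b5, b6, b7, b8 and b13, Hoxa7 and Hoxc13 were under 1 CPM in both lines. There a log2 difference of 1 cannot be reached with a pseudocount of 1, so an absence of calls does not show that the lines were alike. Between L1P and M1P 0 of the 15 were called in either direction, against 0.742% of all genes higher and 0.468% lower. At an adjusted p under 0.05 without a fold limit, for which the share of all genes was not counted, there were 5. Those 5 were Hoxb3 (0.60 ± 0.09), Hoxb6 (0.55 ± 0.10), Hoxa5 (0.51 ± 0.06), Hoxa9 (0.34 ± 0.07) and Hoxa3 (0.28 ± 0.06), each higher in L1P in both libraries. The means of Hoxb3 and Hoxb6 were 3.69 and 3.06 times as high in L1P as in M1P, and both were called with a pseudocount of 0.1, which shrinks low values less.

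The Platr18 clones lacked the HoxA RNA of silenced cells, with Hoxa10 at no more than 1 read in any of their 4 libraries. In the 2 clones against the empty vector 0 of the 15 were called, against 0.427% of all genes higher and 1.03% lower. An adjusted p under 0.05 without a fold limit was reached by 3, all lower in the clones. The share of all genes at that limit was not counted. For Hoxa10 the difference was 0.01 ± 0.07, with an interval from -0.15 to 0.16, against 3.05 in SCR. Hoxb13 was at 3.82 and 3.61 CPM with the empty vector, 0.787 and 0.936 in clone 12 and 2.76 and 2.81 in clone 16. The clones did not overlap with each other or with the vector. The mean difference of the clones was -0.83 ± 0.08 (adjusted p = 2.57e-06), and clone 12 alone, which had more Platr18, was called at -1.34 ± 0.09 (adjusted p = 4.43e-08). Of all genes 3.648% were called in clone 12 alone. Between clones, 1 gene was called higher in clone 16 (Hoxb13, 1.02 ± 0.09, adjusted p = 6.20e-07) and 0 lower, against 2.71% and 1.68% of all genes. That call was lost with either rescaling and without clone 12 replicate 1, at 0.95 to 0.98. Hoxb7 was 0.28 ± 0.05 lower (adjusted p = 0.00132) in the clones.

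With Platr18 silenced as well, E1KD cells still had HoxA RNA. Between Platr18 KD and SCR 0 of the 15 were called, against 0.485% of all genes higher and 0.994% lower. At an adjusted p under 0.05 without a fold limit, for which the share of all genes was not counted, there were 7. Hoxa10 differed by -0.05 ± 0.09, with an interval from -0.23 to 0.13, and Hoxa9 by 0.05 ± 0.07. The members that came nearest to a call went opposite ways. Hoxb7 was at 0.988 and 0.953 CPM in SCR and 0.0204 and 0.0477 in Platr18 KD, 3 and 7 reads, a difference of -0.93 ± 0.06 (adjusted p = 8.78e-08). Hoxa7 was 0.82 ± 0.07 higher (adjusted p = 1.46e-06), with means 2.40 times apart, and Hoxc13 0.54 ± 0.10 higher (adjusted p = 0.00163). Hoxb13 was 0.54 ± 0.09 lower (adjusted p = 0.000640) and Hoxb3 0.50 ± 0.09 higher (adjusted p = 0.00145). The libraries of the 2 groups did not overlap for any of these genes, and the share of all genes without overlap was not counted. Hoxb7 and Hoxb8 were under 1 CPM in both groups, so with a pseudocount of 1 they could not be called. On a scale with a pseudocount of 0.1, Hoxa7 was called higher and Hoxb7 and Hoxb8 lower, against 3.7% of all genes. Without the filter as well, a setting chosen after seeing the data, Hoxb9, Hoxc5 and Hoxc6 were also called lower, against 2.093%. Hoxc6 and Hoxb9 had SCR means of 0.285 and 0.347 CPM, 7.63 and 4.86 times those of Platr18 KD.

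**Figure D5:**
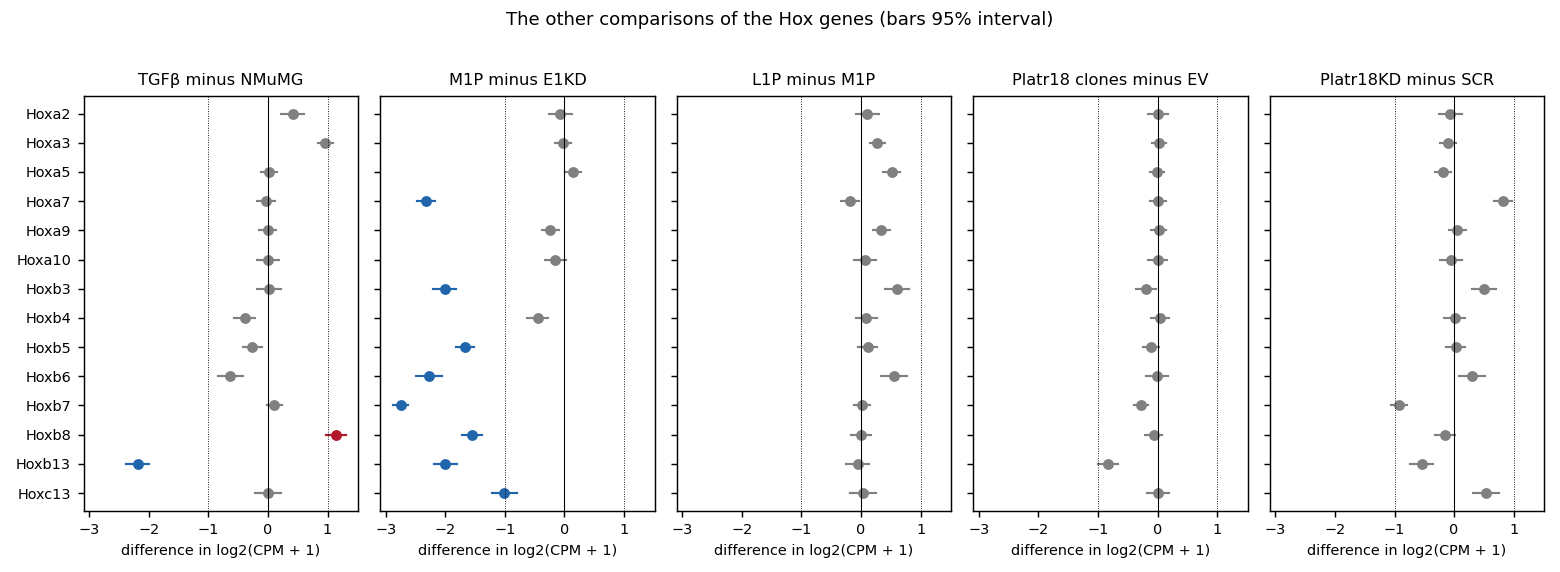
Difference in log2(CPM + 1) of 14 tested Hox genes, with 95% intervals, in the other comparisons (EV, empty vector), red where called higher, blue where called lower and grey where not called. The panel of M1P minus E1KD holds 8 genes called lower, and the panels of L1P and of both Platr18 comparisons hold 0 called genes.

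Among genes that work with or upstream of the Hox clusters, the shares called are to be read against the 6.44% higher and 2.99% lower of all genes in E1KD and the 2.91% and 3.07% in SCR. Of 8 tested cofactor genes 1 was called in E1KD against NMuMG, Pbx4, at 0.0885 and 0.0566 CPM in NMuMG, 3.76 and 2.13 in E1KD (log2 difference 1.85 ± 0.13), and 1.65 ± 0.13 higher in SCR than with the empty vector. Of 26 Polycomb genes 1 was called in E1KD, 1 in SCR and 2 after TGFβ. Cbx7, which reads the repressive mark H3K27me3, was the one called in all 3 comparisons, at 0.124 and 0.0566 CPM in NMuMG, 2.97 and 3.65 with TGFβ, and 18.01 and 16.002 in E1KD. It stayed at 11.5 and 10.6 CPM in M1P and 16.7 and 17.3 in L1P, and was at 6.17 and 6.51 in SCR, 4.74 and 4.66 in Platr18 KD and at most 0.199 CPM in cells of that set not silenced. Cbx7 was thus high in the same silenced lines as Hoxa10, together with a lower level after TGFβ. Of 13 Trithorax and H3K27 demethylase genes, 1 was called in E1KD (Ash2l, 1.01 ± 0.12 higher, just over the limit of 1) and 0 in SCR. None of the cofactor, Polycomb or Trithorax genes was called in M1P against E1KD or in Platr18 KD against SCR.

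Of 10 tested genes of the retinoic acid pathway, which acts on the 3′ Hox genes, 3 were called higher and 1 lower in E1KD, and 2 higher and 1 lower in SCR. Cyp26b1, which degrades retinoic acid, was at 2.67 and 2.47 CPM in NMuMG, 38.1 and 34.1 in E1KD, 28.8 and 27.2 in M1P and 90.3 and 90.4 in L1P, and lower with TGFβ at 0.334 and 0.466 CPM. Stra6, a retinol transporter, was at 3.96 and 3.34 CPM in NMuMG, 32.1 and 20.7 in E1KD and 2.41 and 2.43 in M1P. Dhrs3, which turns retinal back into retinol, was lower by 1.33 ± 0.09 in E1KD and by 2.03 ± 0.09 in SCR. In Platr18 KD against SCR Dhrs3 was called higher by 1.16 ± 0.09 and Cyp26b1 lower by 1.44 ± 0.09. From E1KD to M1P, Stra6 thus fell as the HoxB genes did, while Cyp26b1 stayed high as Hoxa10 did. In Platr18 KD, by contrast, Cyp26b1 was called lower and Hoxa10 was not called. Of the 10 tested genes of the pathway, 1 was called higher and 1 lower in M1P against E1KD, against 1.16% and 2.43% of all genes. Cdx2, a ParaHox gene related to the Hox family, was at 6.12 and 6.05 CPM in NMuMG, 0.0835 and 0.150 with TGFβ, 12.8 and 12.5 in E1KD and 3.86 and 3.60 in M1P. It was 1 of 2 tested genes of its list of 8. Its change after TGFβ was -2.67 ± 0.12, the same direction as Hoxb13, and in M1P -1.53 ± 0.12.

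Markers of other cells were examined beside the fall in M1P. Of the 2 tested fibroblast and lung mesenchyme markers Foxf1 was called, from 0 in NMuMG to 3.90 and 3.38 CPM in E1KD and 0.0524 and 0.0709 in M1P. Over these conditions its course was like that of Hoxa7. The summed level of all 6 listed markers was 4.29 and 3.53 CPM in E1KD, 0.105 and 0.106 in M1P and 0.883 and 0.796 in L1P. In the second set the sum was 0.731 and 0.874 CPM in SCR and 0.0407 and 0.0885 in Platr18 KD, where Hoxa7 was higher than in SCR. The part of these markers in the result was not tested. The fibroblast genes Dcn and Lum were at 0 in both M1P libraries. Of 6 tested epithelial markers 0 were called in E1KD against NMuMG, and Cdh1 and Ocln were called lower in M1P than in E1KD, by 1.29 ± 0.10 and 1.06 ± 0.11. Of the 43 noncoding genes annotated within the clusters, 4 were tested and 0 were called in the 10 comparisons. Hoxaas3, antisense within the HoxA stretch, was at 0 in all 10 libraries of cells not silenced and between 0.291 and 0.779 CPM in the 10 silenced ones, like Hoxa4 and Hoxa6.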

How the data were processed

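RNA from cultured NMuMG-derived cells was sequenced in 20 libraries. Reads were aligned with Bowtie2 (2.2.5 in the submitters' processing notes, which also name GRCm38.p6) to the M18 mouse reference and assigned to genes by the E/M method of Partek, per the study's methods. Counts and sums include genes that are not reported here by name. The strand setting is not given in the sources used here. The deposited values are CPM, to which the authors had added 0.0001; this offset was subtracted, and the worth of 1 read was taken from the steps of the low values. All 20 columns belonged to labelled samples.

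Groups came from the labels. limma 3.58.1 (R 4.3.3) was fitted to log2(CPM + 1) with 10 condition means over the 17106 genes that reached 1 CPM in 2 or more libraries, with Benjamini-Hochberg adjustment. Fold changes are on the log2(CPM + 1) scale, which understates those of low genes, and the floor is 3 reads per library, for counting error only. A gene was called where p was under 0.001 and the log2 fold change was 1 or more in either direction. All tested members and the called members of each list were eligible to be named. The members and gene lists were chosen with earlier results of these data known. Alternatives were the pseudocount, the filter, 2 rescalings, only the compared groups, a replicate block and leaving out each library. Same-numbered replicates shared only a number. The fit was tested on simulated data. Sequences came from RefSeq (GRCm38.p6), lengths and transcripts from GENCODE M21 (lengths for 39 of 40 rows). Tables and figures were made with Python 3.11.15, numpy 2.4.6, pandas 2.3.3 and matplotlib 3.10.9.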

Additional observations from a re-analysis of the deposited data

Results flagged for a closer look

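The effect of hnRNP E1 silencing on Hoxa7 was larger in the first set of libraries than in the second by 1.37 on the log2 scale, and by 1.27 without E1KD replicate 1. Hoxa7 had almost no reads in either control, so its value nearly sets E1KD levels against SCR levels across different kinds of library. For Hoxb7 the same difference was 1.15, and 1.10 without E1KD replicate 1. Hoxb13 was higher in Platr18 clone 16 than in clone 12 by 1.02 on the log2 scale, in 2 of 2 libraries. What sets these values apart was not tested.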

How the results depend on the processing

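Of 398 values of the 30 called Hox differences under other settings, 382 kept their call, 16 lost it and 0 changed sign. Hoxc13 in E1KD, Hoxb13 between clones, and Hoxb7 and Hoxb8 account for the losses. The pseudocount mattered most. With 0.1 in place of 1, 11 Hox genes were called in E1KD against NMuMG, 4 after TGFβ and 3 in L1P against M1P. Of all genes 13.85%, 18.37% and 2.718% were called there. In SCR against the empty vector 9 Hox genes were called, in the Platr18 clones 1 and in Platr18 KD 3. The shares of all genes were 9.985%, 3.601% and 3.7%. With 0.1 and no filter, an alternative chosen after seeing the data, the counts in the same order were 19, 4, 3, 14, 1 and 6. They were out of 40 rows, and the shares of all genes were 7.869%, 9.838%, 1.635%, 5.588%, 1.918% and 2.093%. In E1KD against TGFβ 18 were called and in M1P against E1KD 13, against 15.46% and 3.917% of all genes. With only the compared groups fitted, 5 were called in E1KD against NMuMG (without Hoxc13 and Hoxb7), 5 in E1KD against TGFβ and 7 in M1P (without Hoxc13). The shares of all genes were 4.431%, 7.986% and 1.602%. Clone 12 alone had 1 call, against 3.648% of all genes. Between clones, 0 were called with either rescaling, against 4.251% of all genes with median-of-ratios scaling and 4.015% with equal sums. With equal sums, calls over all genes were higher in 849 of 1545 in E1KD, 2405 of 3817 in E1KD against TGFβ and 314 of 649 in M1P. Leaving out 1 library at a time leaves 1 library in a group, so counts of calls are not given for it. The library left out moved all genes. The median log2 fold change of all genes between E1KD and NMuMG was 0 without E1KD replicate 1 and 0.33 without E1KD replicate 2.

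Adding the replicate block to the fit left the counts of called Hox genes as they were, at 7 in E1KD, 2 after TGFβ, 8 in E1KD against TGFβ, 8 in M1P, 4 in SCR, 1 between clones and 0 in L1P and both Platr18 comparisons. Correlations of same-numbered replicates ran from -0.395 (E1KD with TGFβ) to 0.287. With the numbers crossed, a pairing chosen after seeing the data, 8 were called in E1KD against TGFβ and 0 in the clones. With a pseudocount of 1, a gene under 1 CPM in both groups cannot reach a log2 difference of 1.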
